A study of Mus musculus with 6 samples.

Results

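Expression of C1qa, C1qb, C1qc, Mrc1, Cd163, Vcam1, Csf1r, Adgre1, Ctss and Lyz2, 10 genes typical of tissue macrophages, was followed in sorted mouse bone marrow progenitors. The progenitors came from control mice and from SRF-null mice, in which the gene of the transcription factor SRF was targeted. The genes were chosen with earlier results on this same genotype comparison known, so their differences between genotypes are given as a description without a test. They were read on the 16 probe sets whose annotation names one of them alone, out of 34945 probe sets that name 1 gene, and all 10 are among the 18193 genes so represented. The cells were LSK cells, which lack lineage antigens and carry Sca1 and c-Kit, and which contain the blood stem cells and early progenitors. All mice were C57BL/6 and carried Mx1-Cre, a recombinase under an interferon-inducible promoter that is active in many tissues besides blood. Controls were Srf+/+;Mx1-Cre and SRF-null mice Srf flx/flx;Mx1-Cre, and both were given pIpC, the inducer of the promoter, as 3 doses of 200 µg at intervals of 2 days from 6 weeks of age, with analysis 35 days after the final dose. Each of the 3 control and 3 SRF-null arrays came from pooled animals. The labels do not say how many mice a pool held, so SDs and SEs rest on pools, not on single mice.

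Tissue macrophages engulf dying cells and debris and are maintained by signals through the CSF1 receptor. In bone marrow they surround maturing red cells in erythroblastic islands, take up expelled nuclei, recycle iron and help to hold stem cells in their niche. C1q is the recognition molecule of the classical complement pathway. It is assembled from A, B and C chains, and macrophages are a main source of it. LSK cells are progenitors, in which high levels of these genes are not typical, except that Csf1r, Ctss and Lyz2 transcripts also occur in myeloid-primed progenitors.

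C1qb, C1qc and C1qa follow one another on chromosome 4 with 0 other genes between them in the RefSeq gene order. Promoter windows from RefSeq (build GRCm38.p6) were found for 6 of the 10 genes: C1qb, C1qc, Mrc1, Cd163, Ctss and Lyz2. In the 250 bases before the transcript start, the purine-rich sequence GAGGAA, of the kind bound by the myeloid factor PU.1, occurred on either strand in 4 of these 6, in C1qb, C1qc, Mrc1 and Ctss. It occurred in 23.3% of all 32851 windows of that length. The CArG box, the sequence SRF binds, occurred in 0 of the 6 and in 1.47% of all windows, and TGANTCA, the AP-1 site, in 0 of the 6 and in 6.75%. Parts of 5 windows are shown because they place genes that differed most between arrays (C1qb, Mrc1), a partner chain (C1qc), the gene with the steadiest difference (Ctss) and the gene that hardly differed (Lyz2) side by side. Capitals mark GAGGAA or its reverse complement TTCCTC. The first 4 windows below cover bases 200 to 1 before the start, and the C1qc window covers bases 250 to 51. They lie at chr4:136886201-136886400 (minus strand), chr2:14229214-14229413 (plus), chr3:95526586-95526785 (plus), chr10:117282273-117282472 (minus) and chr4:136892965-136893164 (minus).
C1qb: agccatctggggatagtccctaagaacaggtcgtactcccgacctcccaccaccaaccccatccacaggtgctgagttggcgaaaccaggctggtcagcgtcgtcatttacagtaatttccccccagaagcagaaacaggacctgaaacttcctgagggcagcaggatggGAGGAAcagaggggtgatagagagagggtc
Mrc1: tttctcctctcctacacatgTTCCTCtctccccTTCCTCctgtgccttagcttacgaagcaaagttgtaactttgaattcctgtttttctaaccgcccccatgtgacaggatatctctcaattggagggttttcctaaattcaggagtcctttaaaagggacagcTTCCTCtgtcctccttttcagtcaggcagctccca
Ctss: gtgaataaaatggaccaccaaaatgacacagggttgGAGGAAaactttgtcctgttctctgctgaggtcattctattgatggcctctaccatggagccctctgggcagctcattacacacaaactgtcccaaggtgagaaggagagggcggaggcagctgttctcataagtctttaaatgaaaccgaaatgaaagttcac
Lyz2: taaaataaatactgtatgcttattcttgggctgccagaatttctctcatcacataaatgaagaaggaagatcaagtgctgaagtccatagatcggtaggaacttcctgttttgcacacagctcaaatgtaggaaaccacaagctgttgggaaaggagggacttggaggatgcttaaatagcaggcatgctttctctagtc
C1qc: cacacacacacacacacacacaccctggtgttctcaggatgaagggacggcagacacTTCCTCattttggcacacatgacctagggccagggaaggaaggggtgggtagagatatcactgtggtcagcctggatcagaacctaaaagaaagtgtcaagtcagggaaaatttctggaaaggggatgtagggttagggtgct
Mrc1 carried the sequence 3 times, and C1qb carried it once, 30 bases before the start. These matches describe letters in the windows and say nothing of binding.

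Values are log2(signal + 16) after quantile normalization, so the floor of the scale is 4, and differences are SRF-null minus control. Each SE comes from the limma fit, which draws a gene's variance towards that of all genes. It is thus not the spread of that gene's own pools alone. Before normalization the median signal was 200.4 to 292.2 per array. By limma, 0 of the 18193 genes passed an adjusted p of 0.05 (0%), and 1042 had an unadjusted p under 0.05. The targeted gene Srf was at 13.03 ± 0.02 (SD, n = 3) in controls and at 12.58, 12.43 and 12.80 on SRF-null replicates 1 to 3, all below the controls. The difference was -0.42 (SE 0.13, limma adjusted p = 0.77), so the Srf signal stayed bright in SRF-null cells. Of the LSK marker genes, Kit (14.81 to 15.44) and Cd34 (16.72 to 16.93) were bright on all 6 arrays. Slamf1 was at 11.60, 12.33 and 11.80 in controls and 11.61, 10.73 and 9.18 in SRF-null cells. Its difference was -1.40 (SE 0.61, limma adjusted p = 0.871), and that of Mecom was -0.36 (SE 0.29). Both were lowest on SRF-null replicate 3. Control replicate 2 lacked Y-linked transcripts (Kdm5d at 4.0, the floor) and SRF-null replicate 1 lacked Xist (5.03 against 15.13 or more elsewhere), whereas the other 4 arrays carried transcripts of both sexes. The exact permutation p for the 3′ to 5′ ratio, a sign of RNA quality, was 0.4 for both Actb and Gapdh, where 3 against 3 arrays cannot go below 0.1.

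Of the 10 macrophage genes, 9 had a higher mean in SRF-null cells and 1, Lyz2, a lower one, where 48.6% of all genes had a difference above 0. The median difference was 0.89 over the members and -0.007 over all genes. The difference was at least 1 in 5 members, C1qa, C1qb, Mrc1, Vcam1 and Adgre1 (1.30% of all genes). All SRF-null arrays lay above all control arrays in 3 members, C1qa, Mrc1 and Ctss (5.16% of all genes), and below them in 0 (5.45%). The SRF-null arrays were not alike: on SRF-null replicate 1, 4 members lay above the highest control array (19.2% of all genes), on replicate 2, 7 members (29.4%), and on replicate 3, 8 members (23.9%). The mean over the 10 genes was 10.04, 10.12 and 10.32 on control replicates 1 to 3, and 10.42, 11.52 and 11.76 on SRF-null replicates 1 to 3. The genes were chosen on this contrast, so these counts describe them and support nothing further. In sorted bulk cells, more macrophage-type cells and more RNA per cell cannot be told apart.

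**Figure D1:**
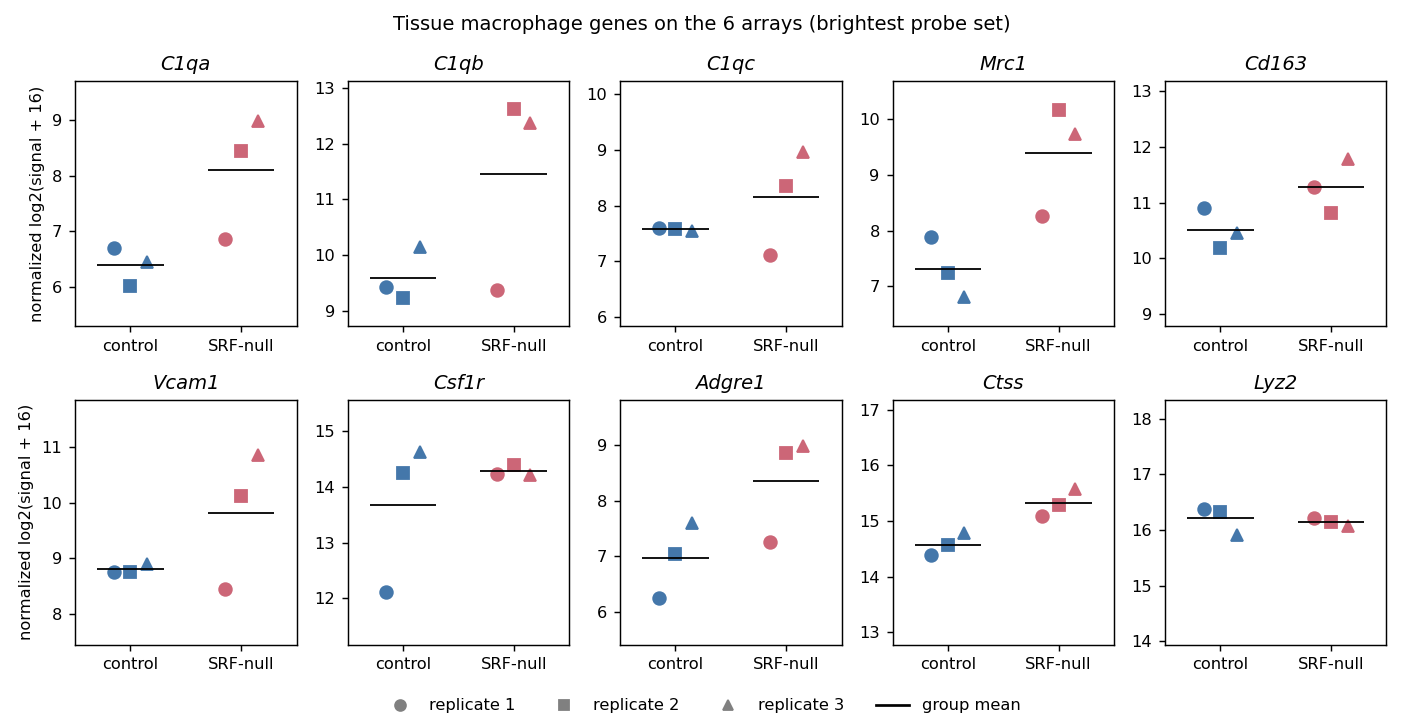
Normalized log2(signal + 16) of the 10 genes on 3 control (blue) and 3 SRF-null (red) arrays, with marker shape for the replicate number, a line for the group mean, and the same span of log2 units in every panel. SRF-null replicates 2 and 3 are the highest points for C1qa, C1qb, C1qc, Mrc1, Vcam1 and Adgre1, Csf1r has a single low point on control replicate 1 (12.11), and Lyz2 is nearly flat.

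The C1q chain genes were highest on SRF-null replicates 2 and 3. C1qa, the A chain, was at 6.71, 6.02 and 6.45 on control replicates 1 to 3 and at 6.87, 8.44 and 8.98 on SRF-null replicates 1 to 3. The groups did not overlap, although SRF-null replicate 1 exceeded control replicate 1 by only 0.16. The difference was 1.70 (SE 0.55), or 3.25-fold (n = 3 per group). C1qb, the B chain, was at 9.42, 9.22 and 10.15 in controls and 9.38, 12.63 and 12.38 in SRF-null cells. SRF-null replicate 1 thus fell among the controls, and the groups overlapped. The difference was 1.87 (SE 0.88), or 3.65-fold. As deposited, the C1qb signal was 542 to 1029 on control arrays and 720, 6133 and 5215 on the SRF-null arrays. The other C1qb probe sets gave the same order of arrays at the top, with differences of 1.67 (SE 0.90) and 1.71 (SE 0.85). On the dimmest of them SRF-null replicates 1 to 3 were at 5.90, 9.20 and 8.56 against 5.75 to 6.71 in controls. The brighter probe sets, of the type whose probes can also match other transcripts, therefore showed the same pattern as the gene-specific one. C1qc, the C chain, was at 7.60, 7.59 and 7.54 in controls and 7.12, 8.35 and 8.96 in SRF-null cells. SRF-null replicate 1 was below every control array and the other SRF-null arrays were above them, and the difference was 0.57 (SE 0.45). Without SRF-null replicate 1 the differences were 2.31 for C1qa, 2.91 for C1qb and 1.08 for C1qc. Without SRF-null replicate 3 they were 1.26, 1.41 and 0.16.

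Among the surface receptors, the mannose receptor gene Mrc1 had the largest difference of the 10 genes with all 6 arrays. Its product takes up glycoproteins bearing mannose. Mrc1 was at 7.88, 7.23 and 6.80 in controls and 8.26, 10.17 and 9.73 in SRF-null cells. The groups did not overlap, and the difference of 2.08 (SE 0.54) corresponds to 4.24-fold. With each array left out in turn it ranged from 1.69 to 2.65. Adgre1, which encodes a surface antigen widely used to define mouse macrophages, was at 6.25, 7.04 and 7.59 in controls and 7.26, 8.85 and 8.98 in SRF-null cells. SRF-null replicate 1 lay within the control range, and the difference was 1.40 (SE 0.56), or 2.65-fold. Cd163, the scavenger receptor for complexes of hemoglobin with haptoglobin, was at 10.90, 10.18 and 10.46 in controls and 11.29, 10.81 and 11.79 in SRF-null cells. The groups overlapped by 1 array on each side, since control replicate 1 exceeded SRF-null replicate 2. The difference was 0.78 (SE 0.30), or 1.72-fold. Cd163 thus departed from the order of arrays seen in the C1q genes, with SRF-null replicate 2 the lowest of its group.

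Vcam1 encodes an adhesion molecule that binds integrin VLA-4 and is carried by bone marrow macrophages as well as by stromal and endothelial cells. On its brightest probe set it was at 8.76, 8.76 and 8.91 in controls and 8.45, 10.13 and 10.86 in SRF-null cells. The controls were close together, SRF-null replicate 1 lay below them and the other SRF-null arrays lay above. The difference was 1.01 (SE 0.59), or 2.01-fold, 1.69 without SRF-null replicate 1 and 0.48 without SRF-null replicate 3. The dimmer probe sets differed by 1.01 (SE 0.36) and 0.80 (SE 0.26), and on both of these all SRF-null arrays lay above all controls. They were near the floor, at 5.22 to 5.40 and 4.0 to 4.59 in controls. The probe sets therefore differed in where SRF-null replicate 1 fell.

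Csf1r, the receptor through which CSF1 and IL-34 sustain macrophages, showed a different pattern that rested on 1 control array. It was at 12.11, 14.25 and 14.63 on control replicates 1 to 3 and at 14.23, 14.40 and 14.21 on the SRF-null arrays. Control replicate 1 was lower than every other array by more than 2 log2 units, and the remaining 5 arrays were close together. As deposited, its signal there was 4627 against 18794 to 25386 on the other arrays. The other Csf1r probe sets had the same low array, at 9.96 against 12.50 to 12.91 and at 8.06 against 9.45 to 10.84. The mean difference was 0.62 (SE 0.64), and without control replicate 1 it was -0.16, with 1.10 without control replicate 3. Csf1r therefore did not share the high values of SRF-null replicates 2 and 3.

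Ctss and Lyz2, the lysosomal members, were bright on all arrays, with an SD of at most 0.25 in either group. Ctss encodes cathepsin S, a protease that trims the MHC class II invariant chain. It was at 14.38, 14.57 and 14.78 in controls and 15.09, 15.29 and 15.58 in SRF-null cells. All SRF-null arrays lay above all controls, and SRF-null replicate 1 was part of the difference. The difference was 0.75 (SE 0.18), or 1.68-fold, and it was 0.71, 0.72 and 0.80 within number pairs 1 to 3. Lyz2 encodes lysozyme M, made by macrophages, monocytes and granulocytes. It was at 16.37, 16.33 and 15.92 in controls and 16.21, 16.15 and 16.07 in SRF-null cells. The groups overlapped and the difference was -0.07 (SE 0.16), turning to 0.02 without control replicate 1.

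**Figure D2:**
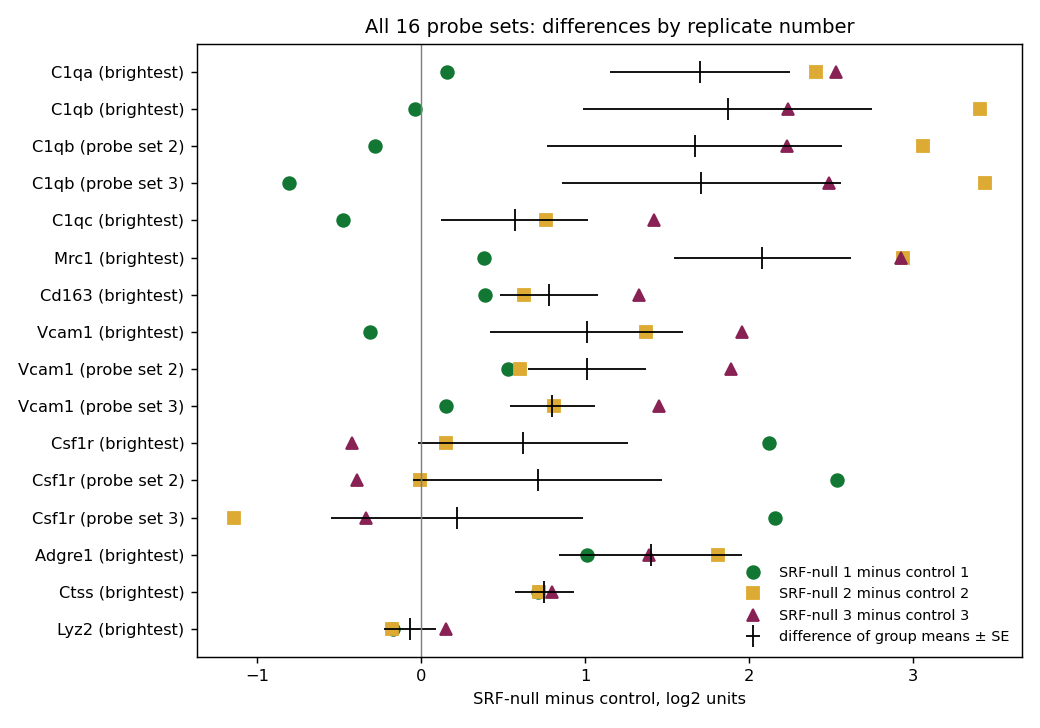
SRF-null minus control in log2 units for all 16 probe sets, within each replicate number (coloured markers) and as the difference of group means with its SE (black). Number pair 1 lies near or below 0 for the C1qb probe sets (-0.04, -0.28 and -0.81) while pairs 2 and 3 lie above 2, and for Csf1r only pair 1 is far above 0 (2.12 on the brightest probe set).

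Over all genes, deviations from the group mean correlated by 0.198, 0.125 and 0.367 between arrays of equal replicate number. Differences were therefore also read within number pairs, while the main fit left the numbers out. Correlations between unequal numbers are not given, and within numbers 1 and 2 the arrays differed in transcripts of sex. The pairs are thus a way of reading, not a known design. For the C1q chains, pair 1 gave 0.16 for C1qa, -0.04 for C1qb and -0.48 for C1qc. Pair 2 gave 2.41, 3.41 and 0.76, and pair 3 gave 2.53, 2.24 and 1.42 for the same genes. Mrc1 differed by 0.38, 2.94 and 2.93 in pairs 1 to 3, Adgre1 by 1.01, 1.81 and 1.39 and Cd163 by 0.39, 0.63 and 1.33. Vcam1 differed by -0.31, 1.37 and 1.96 and Csf1r by 2.12, 0.15 and -0.42. On their brightest probe sets, Mrc1, C1qa, Cd163, Adgre1 and Ctss thus had positive differences in all 3 pairs. So did the dimmer Vcam1 probe sets, at 0.53, 0.60 and 1.89 and at 0.15, 0.81 and 1.45. The share of all genes with this pattern was not counted.

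The members did not vary as 1 block. After each gene was centred on its own mean, the typical gap between profiles (root mean square over the 6 arrays) was smallest for C1qc and Vcam1, at 0.29, followed by Cd163 and Ctss at 0.37, C1qa and Vcam1 at 0.41, C1qc and Ctss at 0.44 and C1qa and Mrc1 at 0.45. C1qa and C1qb, whose products pair in the same complex, were 0.57 apart. The gap depends on the size of changes as well as their direction, so genes that change little lie close. Ctss and Lyz2 were 0.51 apart, although control replicate 1 was the lowest array for Ctss and the highest for Lyz2. The highest array was SRF-null replicate 3 for C1qa, C1qc, Cd163, Vcam1, Adgre1 and Ctss, SRF-null replicate 2 for C1qb and Mrc1, control replicate 3 for Csf1r and control replicate 1 for Lyz2.

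**Figure D3:**
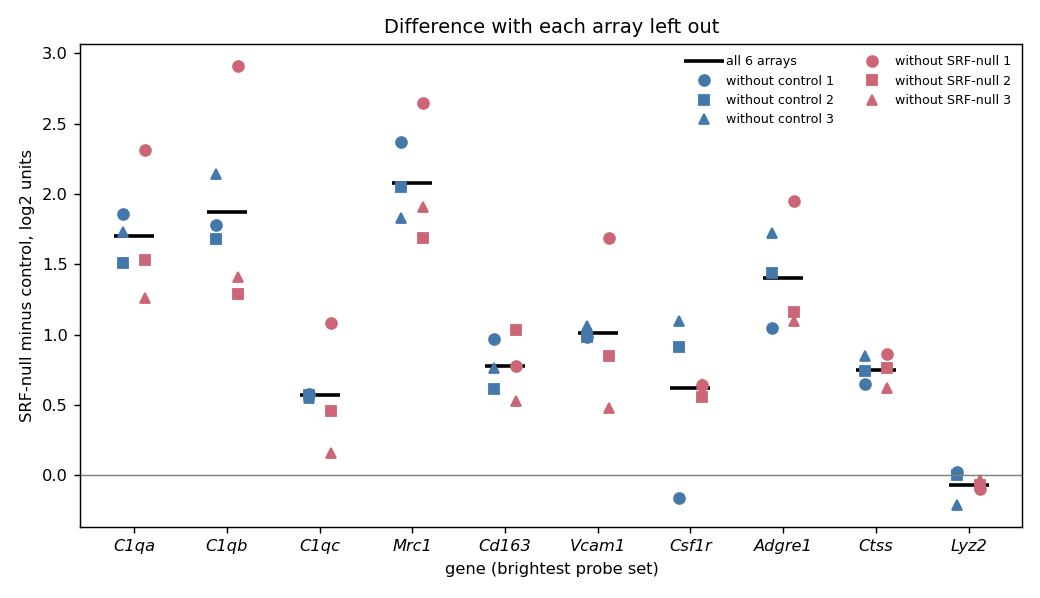
SRF-null minus control (log2 units) for each gene's brightest probe set with all 6 arrays (bar) and with each array left out (markers). Leaving out SRF-null replicate 1 gives the highest value for C1qa, C1qb, C1qc, Mrc1, Vcam1, Adgre1 and Ctss, and leaving out control replicate 1 turns Csf1r to -0.16.

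Leaving out the arrays with transcripts of 1 sex, control replicate 2 and SRF-null replicate 1, gave differences of 2.13 for C1qa, 2.72 for C1qb, 1.08 for C1qc, 2.61 for Mrc1, 1.66 for Vcam1 and 1.99 for Adgre1. Cd163 was then at 0.62, Csf1r at 0.94, Ctss at 0.86 and Lyz2 at -0.04. All remaining SRF-null arrays then lay above all remaining controls in 7 of the 10 genes, against 16.6% of all genes. The share of all genes is higher with fewer arrays. Left out alone, control replicate 2 gave 1.51 for C1qa, 1.68 for C1qb, 2.05 for Mrc1, 0.98 for Vcam1 and 1.44 for Adgre1, so the larger values came with leaving out SRF-null replicate 1 (2.31, 2.91, 2.65, 1.69 and 1.95 for the same genes).

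Other genes of macrophage function were then read from lists by role. None of their 122 entries passed the limma adjustment, and 8 different genes had an unadjusted limma p under 0.05. That share is close to the 5.73% of all genes, so the genes named below are a description. Among scavenger and phagocytic receptors 20 of 30 genes were higher and 10 lower in SRF-null cells (median 0.22), and 3 had an unadjusted p under 0.05, all higher (2.90% of all genes). Timd4, a receptor for phosphatidylserine on dying cells, was at 4.23 to 4.73 in controls and 5.49, 6.13 and 5.51 in SRF-null cells (difference 1.24, SE 0.23), close to the floor. The genes of the signalling adaptors Tyrobp and Fcer1g, which couple activating receptors to kinases, were bright and differed by 0.46 (SE 0.11) and 1.03 (SE 0.26). Both had all SRF-null arrays above all controls, and SRF-null replicate 1 was among the high arrays (15.90 and 15.36). The limma adjusted p-values of these 3 genes were 0.535, 0.609 and 0.633. Fcgr3, a low-affinity receptor for IgG, differed by 0.64 (SE 0.32). In this list 4 genes, Clec4f, Trem2, Colec12 and Lyve1, lay below 5 on every array.

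Complement genes other than C1q had 9 of 19 members higher and 10 lower, with a median of -0.09. C2, which is cleaved downstream of C1q in the same classical pathway, was at 8.45, 9.24 and 9.35 in controls and 7.65, 7.45 and 8.17 in SRF-null cells. All SRF-null arrays were below all controls, opposite to C1qa, and the difference was -1.26 (SE 0.30, limma adjusted p = 0.609). Itgb2, the beta 2 chain of complement receptor 3, was at 11.31, 11.33 and 11.92 against 12.41, 12.52 and 12.12 (0.83, SE 0.21, limma adjusted p = 0.642). Itgax differed by 0.88 (SE 0.41), with overlap, and Calr by -0.13 (SE 0.11). In this list 1 gene was higher and 1 lower at an unadjusted p under 0.05 (2.83% of all genes were lower).

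The list of CSF1 receptor signalling genes and macrophage transcription factors had 14 of 24 members higher and 10 lower, with a median of 0.03. Spic, the factor that directs the iron-recycling macrophage fate, was at 8.92, 8.70 and 8.67 in controls and 8.97, 10.35 and 9.50 in SRF-null cells. SRF-null replicate 1 was only just above the controls, as in C1qa. The difference was 0.84 (SE 0.35, limma adjusted p = 0.858). Tfec, a factor of the Mitf family expressed in macrophages, was lower on every SRF-null array (13.82 to 14.04 against 14.49 to 14.99, difference -0.72, SE 0.17), as the kinase gene Pik3cd was on average (-0.48, SE 0.19). Runx1, a factor of blood stem cells and myeloid cells, differed by 0.41 (SE 0.21).

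Iron and heme handling genes had 9 of 15 members higher and 6 lower, with a median of 0.04. Hmox1, which breaks down heme, was at 8.63, 8.33 and 8.20 in controls and 7.55, 9.64 and 10.23 in SRF-null cells (0.75, SE 0.67). SRF-null replicate 1 was the lowest array and the other SRF-null arrays the highest. The same arrays were lowest and highest in Slc40a1, the iron exporter ferroportin, named after its values were seen, at 9.47, 9.58 and 9.51 against 8.68, 10.51 and 10.99. Slc11a1, an ion transporter of the phagosome, differed by 0.75 (SE 0.31), Cp by -0.72 (SE 0.45) and Abcg2 by -0.32 (SE 0.22). Lysosomal proteases and hydrolases other than Ctss and Lyz2 had 10 of 25 members higher and 15 lower, with a median of -0.05 and differences from -0.72 to 0.35. Within it Ctsf differed by -0.66 (SE 0.28), Gusb by -0.21 (SE 0.14), Lipa by 0.35 (SE 0.27) and Man2b1 by -0.21 (SE 0.16). Partners of VCAM1 and related adhesion genes had 7 of 9 members higher with a median of 0.11, led by Itga9 (0.71, SE 0.31) and Itgb7 (0.25, SE 0.14), with Icam2 and Icam1 both at 0.13 (SE 0.12 and 0.17).

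Markers of other cells that a sort could hold were in part high on the same arrays. The T and NK cell list averaged 7.53 to 7.93 on control arrays and 7.78, 8.47 and 9.02 on SRF-null replicates 1 to 3, with 14 of 16 genes higher and a median of 0.57. Within it Cd7 differed by 1.74 (SE 0.27), Cd247 by 0.68 (SE 0.17), Klrd1 by 1.42 (SE 0.39) and Cd4 by 1.11 (SE 0.33). Each of these had SRF-null replicate 1 above the controls, unlike C1qb. Gzma and Cd3e, named after their values were seen, were like C1qb, with replicate 1 within the control range. On SRF-null replicates 1 to 3 they were at 5.23, 7.91 and 10.05 and at 4.38, 7.54 and 7.51. Their highest controls were 5.29 and 5.58. Other genes of the list did not share this. Gzmb was lower in SRF-null cells (-1.22, SE 0.54), and the CD3 chain genes Cd3d and Cd3g differed by 0.20 (SE 0.27) and -0.01 (SE 0.27). SRF-null replicate 1 exceeded all controls in 6 of 16 genes. At an unadjusted limma p under 0.05, 6 genes were higher (2.90% of all genes). In 5 genes all SRF-null arrays lay above all controls (5.16%). The dendritic cell and MHC class II list averaged 10.61 to 11.27 in controls and 10.53, 11.14 and 11.91 in SRF-null cells, with 12 of 15 genes higher and a median of 0.18. The monocyte list averaged 8.03, 8.78 and 8.72 on control replicates 1 to 3 and 8.30, 8.61 and 9.34 on SRF-null replicates 1 to 3, with Clec4a3 at 1.09 (SE 0.49), Aif1 at 1.14 (SE 0.93), Treml4 at 0.65 (SE 0.35) and Gda at -1.29 (SE 0.40). Aif1, also a macrophage gene, was at 7.79 and 10.07 on SRF-null replicates 2 and 3 and at 6.18 to 7.07 elsewhere. Granulocyte genes had 10 of 17 members higher (median 0.14), B cell genes 8 of 12 (0.13), erythroid genes 10 of 13 (0.04), megakaryocyte genes 8 of 10 (0.28), stromal and endothelial genes 10 of 17 (0.06) and LSK genes 5 of 15 (-0.05). No gene in these lists passed the limma adjustment. At an unadjusted limma p under 0.05, 1 erythroid and 1 stromal and endothelial gene were higher (2.90% of all genes). The lower ones were 1 monocyte gene, Gda, and 1 stromal and endothelial gene, Col1a2 at -1.78 (SE 0.68), against 2.83% of all genes. The granulocyte, dendritic, B cell, megakaryocyte and LSK lists held none. The list medians moved with single arrays. Without SRF-null replicate 3 they were 0.32 for T and NK cells, -0.13 for dendritic cells, -0.34 for B cells, -0.12 for erythroid cells, -0.03 for granulocytes, 0.06 for megakaryocytes, 0.05 for monocytes and 0.03 for LSK cells. Without control replicate 1 they were -0.03 for monocytes, -0.09 for granulocytes, -0.03 for megakaryocytes and 0.06 for LSK cells, and without SRF-null replicate 1 they were 0.46 for dendritic cells, 0.35 for B cells and 0.37 for erythroid cells. With 1 array left out the monocyte median reached 0.46, from 0.22 with all arrays, and the stromal and endothelial median ran from -0.02 to 0.28. SRF-null replicate 3 had the highest mean of the macrophage members and of the monocyte, granulocyte, dendritic, B cell, T and NK cell, erythroid and megakaryocyte lists, and the lowest mean of the LSK list (14.61 against 14.91 to 15.29 in controls). The part of these other cell types in the macrophage gene values was not tested.

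**Figure D4:**
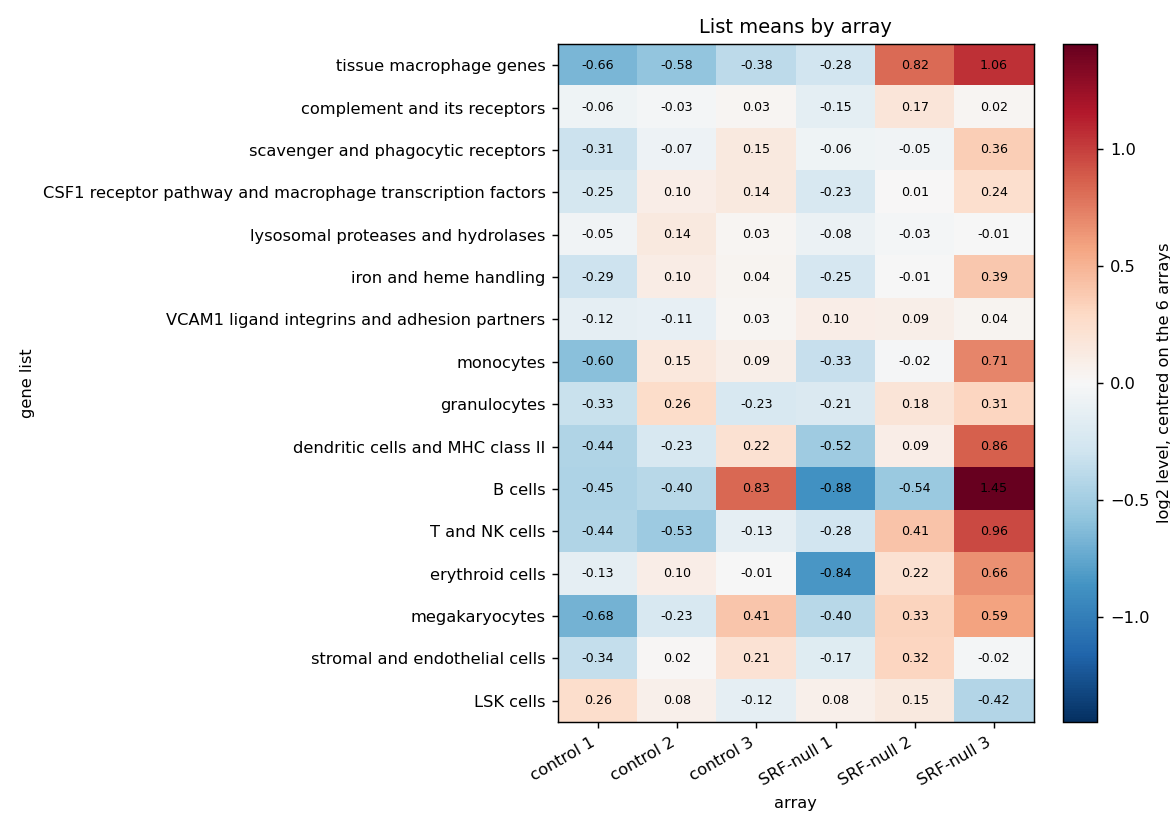
Mean log2 level of the 10 macrophage genes (top row) and of each other gene list on the 6 arrays, each row centred on its own mean, with the colour scale in log2 units. In the top row the positive arrays are SRF-null replicates 2 and 3, whereas the lysosomal list is nearly flat and SRF-null replicate 3 is the highest array of every cell type list except the stromal and endothelial list and the LSK list.

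Outside the members, the 8 genes whose centred profile lay closest to the mean profile of the 10 macrophage genes, among 9091 genes above the median level, were Evl (root mean square gap 0.19), Ifi27l2a (0.29), Tlr3 (0.30), Camsap2 (0.31), H2-DMb2 (0.32), Ubald1 (0.33), Sntb1 (0.33) and Sync (0.35). Evl, a regulator of actin filament growth, was at 10.60, 10.70 and 11.00 in controls and 11.05, 11.66 and 12.14 in SRF-null cells. Tlr3 encodes a receptor for double-stranded RNA, and H2-DMb2 encodes a chain of the chaperone that loads MHC class II. These genes were picked for likeness over 6 arrays.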

How the data were processed

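Each of 6 Affymetrix arrays, 3 control and 3 SRF-null, held RNA of sorted LSK cells. Labelled targets were amplified from 30 ng RNA, per the labels' protocols. The deposited table gives 1 intensity per probe set on a linear scale, a unit read from the values. No label or header names the authors' summary and scaling method, and no detection calls were used. Of 45101 probe sets, 64 controls were left out, 34945 named 1 gene, 932 several and 9160 none in the annotation used. Of those with 1 gene, 34741 matched RefSeq by gene ID, and 0 had a newer symbol.

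Intensities became log2(value + 16), which understates the differences of dim genes, and were quantile normalized, since array medians spanned 0.51 log2 units. The brightest probe set stood for each gene. The groups were compared with limma 3.58.1 in R 4.3.3 (lmFit, eBayes, genotype as the only term, Benjamini-Hochberg over 18193 genes), and the fit was tested on simulated data. The members, the lists and the tests were chosen with earlier results of these data known. The genes named by rule are all members, Srf, up to 4 genes of each other list by smallest p, and the 8 genes nearest in profile. Others were named outside this rule, after their values were seen. Among them are Slc40a1, Gzma, Cd3e, Gzmb, Cd3d, Cd3g, Ccr2, F13a1, Elane, S100a8 and the genes nearest to Csf1r. Replicate numbers come from the titles. Deviations from group means correlated over genes by 0.198, 0.125 and 0.367 for numbers 1 to 3, so differences were also read by number. Correlations between unequal numbers are not given, so a pairing was not established. The number of arrays limits the precision. Alternatives covered the offset, normalization, probe set choice, a filter on dim genes, the variance model, the replicate block and leaving out arrays. Figures were drawn with matplotlib 3.10.9.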

Additional observations from a re-analysis of the deposited data

How the results depend on the processing

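The 9 to 1 split of members by sign held in all alternatives that used every member gene, with Csf1r and Lyz2 exchanging sides without control replicate 1. The median difference over the members ran from 0.63 (without SRF-null replicate 3) to 1.38 (without SRF-null replicate 1) as arrays were left out in turn. It was 1.37 without both arrays that carried transcripts of 1 sex, and 0.86 to 0.91 with the other offsets, normalizations and the mean of probe sets. With only genes above the median level, 5 members remained, 1 of them without overlap (5.34% of all genes in that fit). The count of members whose SRF-null arrays all lay above the controls, an alternative set chosen after seeing the data, was 3 (5.16% of all genes), ran from 3 to 7 with 1 array left out (8.08% to 10.9% of all genes, and 10.4% where the count was 7, without SRF-null replicate 1), and was 7 without both arrays of 1 sex (16.6%), so the share over all genes also grew with fewer arrays. With the replicate block the median stayed at 0.89 and 0 genes passed, while 1478 genes had an unadjusted p under 0.05, and it changed no call. Over all genes, 1 gene (Mocs1) passed under median centring, likewise under a trended, robust variance, and 0 to 1 passed with 1 array left out, the 1 being Ccnb1ip1 without control replicate 2. The limma count at an unadjusted p under 0.05 was 1042 of 18193 genes in the main fit and 647 after median centring. It was 1711 of 34945 with every probe set as a feature and 635 of 9096 with only the brighter genes, so these counts have unlike bases. The count was 690 without both arrays of 1 sex (468 higher and 222 lower), and 754 to 1509 with 1 array left out. Without control replicate 1, where the count was 1509, 513 genes were higher and 996 lower. Medians of the macrophage role lists ran from 0.11 to 0.31 for scavenger receptors, -0.07 to 0.15 for complement, -0.09 to 0.01 for the CSF1 receptor and transcription factor list, -0.15 to 0.01 for lysosomal genes, -0.06 to 0.11 for iron genes and 0.05 to 0.17 for VCAM1 partners with 1 array left out. The cause of these shifts was not tested, and the number of features or arrays also differed between some settings. C1qa, Adgre1, Mrc1 and the dimmer Vcam1 probe sets lie low on the scale, where the offset limits the measured difference: C1qa ran from 1.31 with an offset of 64 to 1.89 with an offset of 1.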

Other observations

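Control replicate 1, the array with low Csf1r, was the lowest array for 7 of 17 monocyte genes and 6 of 17 granulocyte genes, and the highest for 1 and 0 of them. Other lists shared this, with 6 of 10 megakaryocyte, 6 of 17 stromal and endothelial and 10 of 30 scavenger and phagocytic receptor genes lowest there. So were 8 of 24 genes of the CSF1 receptor and transcription factor list, 8 of 25 lysosomal and 5 of 15 dendritic cell genes. The counts were 3 of 9 for VCAM1 partners, 4 of 16 for T and NK cells, 3 of 19 for complement and 3 of 15 for iron genes. It was the lowest array for 0 of 12 B cell, 1 of 13 erythroid and 0 of 15 LSK genes. The share over all genes was not counted. The following 3 monocyte and granulocyte genes were named after their values were seen, and others such as S100a8 (12.63 there, against 12.37 and 10.64 on the other controls) did not share the low value. Ccr2, the receptor that draws monocytes out of the marrow, was at 9.17 there against 11.33 to 13.07 on the other arrays. F13a1, the coagulation factor XIII A chain carried by monocytes, was at 12.05 against 12.52 to 14.91, and Elane, neutrophil elastase, at 11.96 against 12.55 to 15.05. The 8 genes nearest to Csf1r in centred profile over the 6 arrays were Clu (root mean square gap 0.19), Lhpp (0.20), Nr0b2 (0.27), Gpc3 (0.32), Lancl2 (0.32), Siglecf (0.33), Chn2 (0.34) and Gla (0.35). Clu, for example, was at 9.91 on control replicate 1 and at 11.49 to 12.12 elsewhere. Control replicate 1 had 41 genes more than 1.5 log2 units below every other array, against 7 to 33 such genes on each of the other arrays.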
